A study of Homo sapiens with 12 samples.

Results

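The BCL2 family genes described here are 10 genes that set whether a cell survives or dies by the mitochondrial route of apoptosis. They were taken by symbol from a table of 29607 genes: MCL1, BCL2, BCL2L1, BCL2L11, BAX, BAK1, PMAIP1, BBC3, BID and BIK. Each symbol matched 1 row, and all 10 genes passed the filter on low values. The choice used no measured value, but it was made with earlier results of these data known. RNA came from KMS11, an established human multiple myeloma line, in 12 libraries that form 6 groups of 2. STK17B, the gene manipulated, encodes a serine/threonine kinase related to death-associated protein kinase. The shControl group carried a control hairpin, is labelled wild type and was untreated. The sh1 and sh2 groups each carried a hairpin against STK17B and were untreated. The inhibitor group is labelled wild type and received an STK17B inhibitor with no name, dose or time given. The series design speaks of a vehicle, but no group is labelled with one, so the inhibitor was set against untreated shControl and solvent effects cannot be told apart from those of the inhibitor. No construct is named for the inhibitor group, so an effect of carrying the control hairpin cannot be told apart either. The Vector group is wild type with an empty vector, and the overexpression group carried an STK17B cDNA. Neither was treated. Everything here comes from a single cell line, and nothing in the labels says that paired libraries came from separate cultures. A p-value here reflects only how far these libraries spread, and that spread may be technical.

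Proteins of the BCL2 family meet at the outer mitochondrial membrane. The pro-survival members hold the effectors BAX and BAK in check, and the BH3-only members bind the pro-survival proteins or the effectors and so release or start pore formation. Myeloma cells are known to depend on pro-survival members, MCL1 above all, and drugs that imitate BH3-only proteins are used or studied in this disease. RNA levels do not give the amount of these proteins, several of which are turned over fast or activated by cleavage.

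Values were TPM, which scales every library to the same total and corrects for transcript length, so levels can be compared between genes. The number of reads behind a value is unknown. A library had 16577 to 17354 genes above 0. STK17B stood at 27.3 ± 0.2 TPM (SD, n = 2) in shControl, 11.8 ± 1.3 with sh1, 14.6 ± 0.1 with sh2, 23.7 ± 1.8 with the inhibitor, 29.8 ± 2.3 in Vector and 89.3 ± 6.8 with overexpression. Of 10 plasma cell markers 9 were found, and their sum was 2368 to 2395 TPM in shControl, 1633 to 1917 with the hairpins, 1739 to 1774 with the inhibitor, 2586 to 2602 in Vector and 2131 to 2137 with overexpression. Of these 9 markers 8 fell with the hairpins, 8 with the inhibitor and 7 with overexpression, by the test used below. Of all genes 20.2%, 11.8% and 10.3% were called lower there. The part of this marker loss in the changes below was not tested. CD3D and CD3G, which define T cells, were at 0 in all 12 libraries, and the summed T and NK cell, myeloid and stromal or endothelial markers each stayed between 1.19 and 7.81 TPM. Those few TPM moved with the groups: the T and NK sum was 3.34 to 3.74 TPM in shControl and 6.51 to 7.81 with overexpression, and the stromal or endothelial sum was 4.51 to 7.14 TPM in shControl and 1.19 to 1.56 with the inhibitor. The 2 pairs of control columns carry numbers in place of group names, and they were read as shControl and Vector because those numbers match library numbers in the labels. That reading is an inference, so for each member the changes against the other control are also given below.

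Changes were differences of log2(TPM + 1) between group means, tested with limma over 12731 genes, and "rose" or "fell" means a Benjamini-Hochberg adjusted p below 0.05. With both hairpins together, against shControl, 3 members rose (MCL1, BCL2L11 and BBC3) and 2 fell (BCL2L1 and BIK). Of all genes tested 46.3% were called in that comparison, 26.2% higher and 20.2% lower, beside 5 of 10 members. With the inhibitor MCL1, BCL2L11 and BID rose and BCL2L1 fell, which is 4 of 10 members beside 39.9% of all genes (28.0% higher, 11.8% lower). With overexpression against Vector BCL2, BAX and BCL2L11 rose and BCL2L1, BID and BIK fell, which is 6 of 10 members beside 36.8% of all genes (26.6% higher, 10.3% lower). The median change of the members was 0.03 with the hairpins, 0.07 with the inhibitor and 0.01 with overexpression, where the medians over all genes were 0.03, 0.08 and 0.08. The first 2 shares of members lie near the background and the third above it. The counts were not tested against the background and are not read as a result about the family. What follows is about which of its genes moved. In bulk RNA, fewer cells of a kind and less RNA per cell cannot be told apart. Libraries of different groups often did not overlap, and the shares over all genes are given below with the order of the group means.

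The split between higher and lower calls depended on the scaling. Rescaling by the median of ratios, in place of TPM as deposited, turned the 3569 higher and 1507 lower genes of the inhibitor comparison into 2525 and 1989, and quantile normalization turned them into 2105 and 1949. For overexpression the 3381 higher and 1308 lower genes became 1981 and 2611, or 2210 and 2566. For the hairpins the 3330 higher and 2570 lower genes became 2964 and 3118, or 2879 and 3159. Among the members, the inhibitor's 3 higher and 1 lower became 1 and 2 under the median of ratios and 1 and 3 under quantile normalization. For overexpression the members' 3 higher and 3 lower became 1 and 4, or 2 and 4. Quantile normalization moved the median of all genes from 0.08 to -0.02 in the overexpression comparison and from 0.09 to -0.02 for Vector against shControl.

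**Figure D1:**
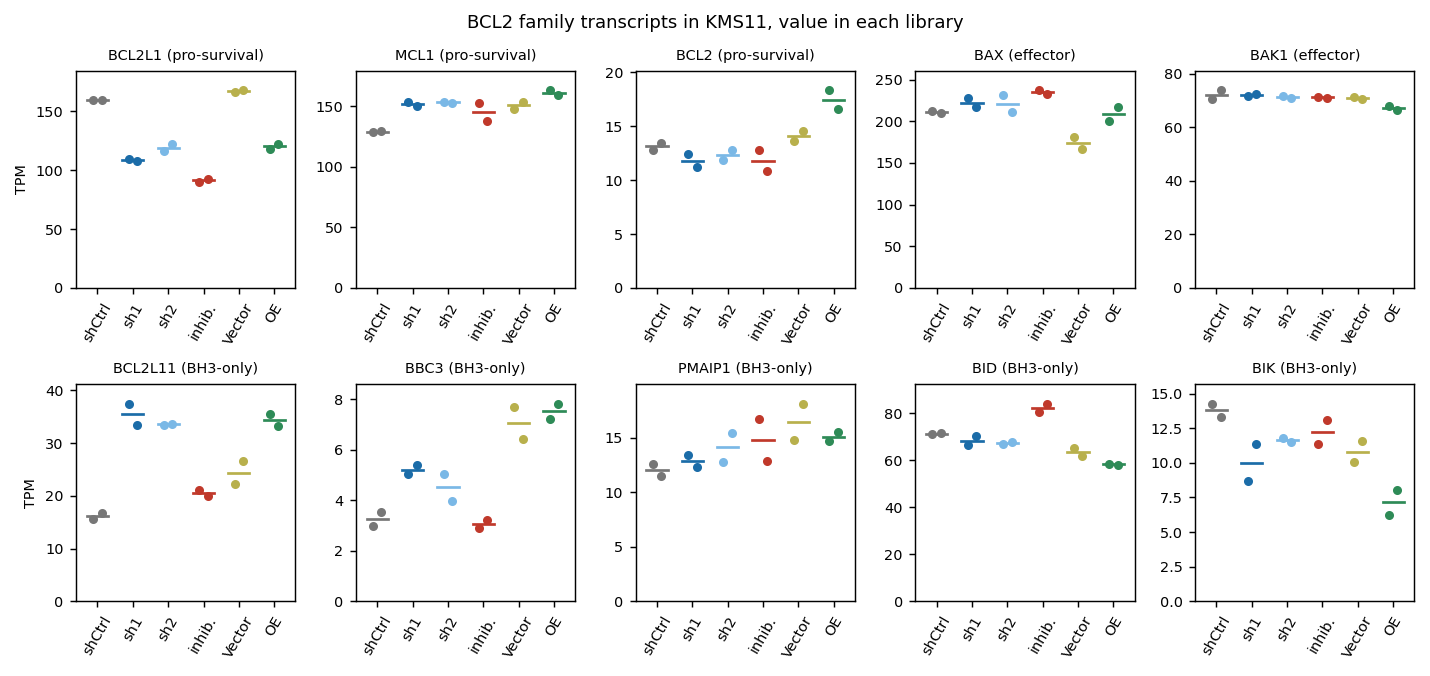
TPM of the 10 BCL2 family genes in each of the 12 libraries, by group (shCtrl is shControl, inhib. the inhibitor, OE overexpression). Points are libraries and bars are means of 2. BCL2L1 lies between 90.1 and 122 TPM in all 8 libraries with a hairpin, inhibitor or overexpression and between 159.7 and 168 in the 4 control libraries.

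Sequence before the start site is shown for 3 members: BCL2L1 and BCL2L11, which passed the test in all 3 comparisons and moved in opposite directions, and BAX, the most abundant member. RefSeq promoter windows (GRCh38.p14) were matched for 8 of the 10 members, with no entry for MCL1 or BIK. The stretches printed lie within the 250 bases before a start site and leave out annotated exons. The letters searched were GTAAACA, a core that FOXO factors bind, and CACGTG, the E-box that MYC and other bHLH factors bind, on both strands. The end letters of these motifs can overlap, and no match printed here overlaps another. Capitals mark the matches. Of 35116 promoter windows 2.98% hold GTAAACA and 6.34% hold CACGTG in those 250 bases. The BCL2L11 stretch (chr2:111120664-111120913, plus strand) holds GTAAACA with its first base 223 bases before the RefSeq start used. GENCODE begins the gene at 111119378, so this stretch lies inside the annotated gene.
BCL2L11: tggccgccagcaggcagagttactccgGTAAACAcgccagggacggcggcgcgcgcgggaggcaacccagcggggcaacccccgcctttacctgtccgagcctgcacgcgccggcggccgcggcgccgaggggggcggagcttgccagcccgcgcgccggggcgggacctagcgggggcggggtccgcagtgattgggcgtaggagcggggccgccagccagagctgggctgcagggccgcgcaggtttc
The BCL2L1 stretch (chr20:31723990-31724213, written on the gene's minus strand) holds neither motif. Another BCL2L1 window is annotated exon throughout and is not printed.
BCL2L1: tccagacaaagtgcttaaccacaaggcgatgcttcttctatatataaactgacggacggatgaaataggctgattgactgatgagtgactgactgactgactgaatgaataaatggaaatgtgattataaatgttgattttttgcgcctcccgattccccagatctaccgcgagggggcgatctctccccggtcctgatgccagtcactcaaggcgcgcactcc
The BAX stretch (chr19:48954625-48954814, plus strand) holds CACGTG at 138 and 93 bases before the start, and its whole window of 250 bases holds 4.
BAX: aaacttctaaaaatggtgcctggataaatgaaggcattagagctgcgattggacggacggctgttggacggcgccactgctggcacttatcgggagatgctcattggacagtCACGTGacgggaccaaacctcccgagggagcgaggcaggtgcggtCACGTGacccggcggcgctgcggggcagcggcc
The BCL2L11 stretch is 76.8% G and C and the BCL2L1 stretch 47.8%. Among other members, the BBC3 stretch is 49.0%, and BBC3 rose with the hairpins against shControl. The PMAIP1 stretch is 76.2%, and PMAIP1 was not called in any of the 3 comparisons. A tie of base composition to direction was not tested. CACGTG is not particular to BAX among the members. It also lies in the BBC3 stretch, 232 bases before the start, and in BID windows, at 106 and 47 bases before their starts. A match of letters is a description of these windows and shows no binding.

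BCL2L1 encodes BCL-xL, a pro-survival protein that binds BAX, BAK and most BH3-only proteins; a shorter splice form, BCL-xS, acts against survival, and the gene-level values do not separate them. The gene lies on chromosome 20 from 31664452 to 31723989 on the minus strand (GRCh38, GENCODE). It measured 159.7 and 159.9 TPM in shControl and 166 and 168 TPM in Vector. With sh1 it measured 109.6 and 107 TPM, with sh2 116 and 122, with the inhibitor 90.1 and 92.6 and with overexpression 118 and 122. All 8 perturbed libraries lay below all 4 control libraries, and the inhibitor libraries were the lowest. How many of all genes split in this way was not counted. BCL2L1 fell by 0.49 with the hairpins (log2, SE 0.03, limma adjusted p = 2.2e-06), by 0.80 with the inhibitor (SE 0.03, adjusted p = 3.9e-07) and by 0.47 with overexpression (SE 0.03, adjusted p = 1.3e-05). BCL2L1 RNA thus fell both where STK17B was knocked down and where it was overexpressed, and the difference between these effects was -0.02 (95% interval -0.12 to 0.08, adjusted p = 0.83). The fall was 0.31 larger with the inhibitor than with the mean of the hairpins (adjusted p = 2.1e-05). Against the other control the hairpins gave -0.55, the inhibitor -0.86 and overexpression -0.41, each called lower. The calls held under all 17 other alternatives run for the hairpins and all 15 for each of the other 2 comparisons.

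MCL1 encodes a short-lived pro-survival protein that holds BAK and BCL2L11 products; its short splice form is not separated here. The gene spans chromosome 1 from 150574551 to 150579738 on the minus strand. It measured 128 and 129.5 TPM in shControl, 153 and 150.0 with sh1, 154 and 153 with sh2, and 153 and 138 with the inhibitor. It measured 148 and 153 TPM in Vector and 163 and 159 with overexpression. The shControl libraries were the lowest of the 12 and the overexpression libraries the highest. MCL1 rose by 0.24 with the hairpins (log2, SE 0.04, limma adjusted p = 8.5e-04) and by 0.17 with the inhibitor (SE 0.04, adjusted p = 0.015). The change with overexpression was 0.10 (95% interval -0.0045 to 0.20, adjusted p = 0.12). Vector itself was above shControl by 0.22 (adjusted p = 0.0057), and against Vector the hairpins differed by 0.02 and the inhibitor by -0.05, neither called. Overexpression against shControl was 0.32 and called higher (adjusted p = 2.5e-04). The inhibitor call was also lost with only the compared groups in the fit (0.17), without shControl 1 (0.16), shControl 2 (0.17) or inhibitor 1 (0.09), by the median of ratios (0.10) and by quantile normalization (0.04).

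BCL2, the founding pro-survival member and the target of venetoclax, was the lowest of the 3 pro-survival members. Its position is chromosome 18 from 63123346 to 63320128 on the minus strand. It measured 12.8 and 13.5 TPM in shControl, 12.4 and 11.2 with sh1, 11.9 and 12.8 with sh2, and 12.8 and 10.9 with the inhibitor. It measured 13.7 and 14.6 TPM in Vector and 18.3 and 16.6 with overexpression, above every other library. BCL2 rose by 0.29 with overexpression (log2, SE 0.09, limma adjusted p = 0.025) and by 0.38 when overexpression was set against shControl. The call was lost without Vector 1 (0.24), without overexpression 1 (0.22), by the median of ratios (0.18) and by quantile normalization (0.18). The change was -0.11 with the hairpins (adjusted p = 0.24) and -0.15 with the inhibitor (adjusted p = 0.20), neither called. Quantile normalization called both lower (-0.17 and -0.22), and the median of ratios called the inhibitor change lower (-0.21). Against Vector both were called lower, at -0.21 and -0.24.

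The make-up of the pro-survival RNA moved with these changes, as sums of TPM that can be compared because TPM is per length. BCL2L1 was 1.24 and 1.23 times MCL1 in the shControl libraries and 1.12 and 1.09 times in Vector. The ratio was 0.714 and 0.716 with sh1, 0.754 and 0.801 with sh2, 0.590 and 0.673 with the inhibitor, and 0.723 and 0.769 with overexpression. BCL2L1 was thus the more abundant of the pair in all 4 control libraries and MCL1 in all 8 others. The sum of the 3 pro-survival genes was 301 and 303 TPM in shControl, 241 to 256 with the inhibitor and 269 to 288 with the hairpins. It was 328 and 336 TPM in Vector and 299.6 and 298 with overexpression, so the overexpression sum lay below Vector and just under shControl. BCL2 made up 4.16% to 6.12% of it in any library.

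**Figure D2:**
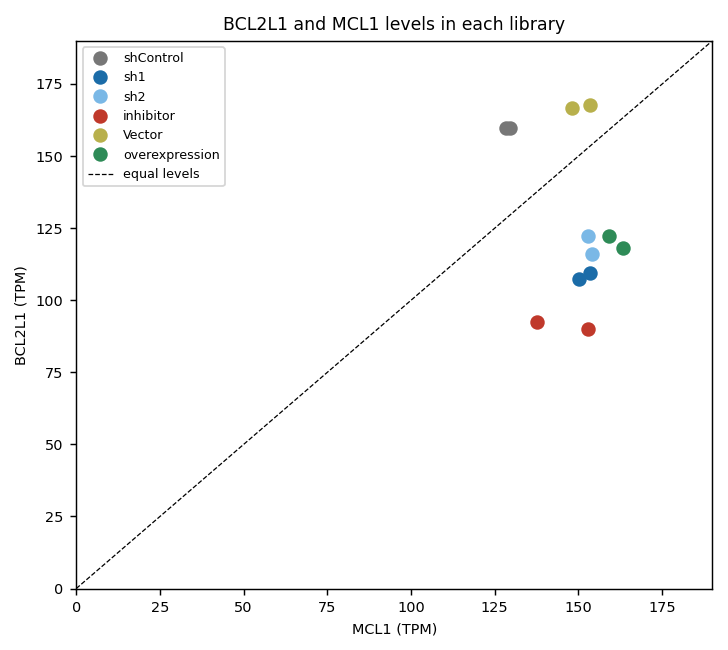
BCL2L1 against MCL1, both in TPM, with 1 point per library and a dashed line at equal levels. The 4 control libraries lie above the line, with ratios of 1.09 to 1.24, and the 8 others lie below it, at 0.590 to 0.801.

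BAX, an effector that forms pores in the outer mitochondrial membrane, was the most abundant member. It lies on chromosome 19 from 48954815 to 48961798 on the plus strand. It measured 212 and 209 TPM in shControl, 228 and 217 with sh1, 231 and 211 with sh2, and 237 and 232 with the inhibitor. It measured 181 and 167 TPM in Vector, the lowest 2 libraries, and 201 and 217 with overexpression. BAX rose by 0.26 with overexpression against Vector (log2, SE 0.06, limma adjusted p = 0.0052) but differed by -0.01 from shControl, and the call was lost by the median of ratios (0.15). The inhibitor change of 0.15 just missed the threshold (adjusted p = 0.0502). It passed with the filter at 5 TPM, with only the compared groups in the fit and with robust eBayes, which leave the value the same. The hairpin change was 0.07 (95% interval -0.04 to 0.18, adjusted p = 0.25). Against Vector both were called higher, by 0.35 for the hairpins and 0.43 for the inhibitor.

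BAK1, the other effector, lies on chromosome 6 from 33572547 to 33580293 on the minus strand. It ranged from 66.6 to 73.8 TPM over the 12 libraries. It measured 70.5 and 73.8 TPM in shControl and 68.2 and 66.6 with overexpression, the lowest libraries, and 70.5 to 72.5 in the other 8. The changes were -0.0070 with the hairpins (95% interval -0.07 to 0.06), -0.02 with the inhibitor (-0.09 to 0.06) and -0.07 with overexpression (-0.14 to -0.00070), none called at an adjusted p below 0.05. Overexpression was called lower by the median of ratios (-0.18), by quantile normalization (-0.13) and against shControl (-0.10), and the inhibitor was called lower by quantile normalization (-0.14). Against Vector the hairpin change was 0.02 and the inhibitor change 0.0076, neither called. Relative to its level, BAK1 had the narrowest range of the 10 members.

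BCL2L11 encodes BIM, a BH3-only protein that binds every pro-survival member and whose splice forms are not separated here. Its locus is chromosome 2 from 111119378 to 111168447 on the plus strand. It measured 15.5 and 16.7 TPM in shControl, 37.5 and 33.4 with sh1, and 33.5 and 33.7 with sh2. It measured 21.1 and 19.97 TPM with the inhibitor, 22.2 and 26.6 in Vector and 35.5 and 33.3 with overexpression. The hairpin and overexpression libraries overlapped with each other and lay above all others. BCL2L11 rose by 1.05 with the hairpins (log2, SE 0.07, limma adjusted p = 5.0e-06), the largest change of any member in the 3 comparisons, by 0.33 with the inhibitor (SE 0.08, adjusted p = 0.012) and by 0.48 with overexpression (SE 0.08, adjusted p = 0.0019). Vector was above shControl by 0.57 (adjusted p = 0.0012), so the control chosen matters for its size. Against the other control the hairpins gave 0.49 and overexpression 1.05, both called higher, while the inhibitor gave -0.24, called lower. The inhibitor call was lost without shControl 1 (0.28) or inhibitor 1 (0.30). The inhibitor level was 0.72 below the mean of the hairpins (adjusted p = 3.2e-05), a difference that uses no control. The gene lies within MIR4435-2HG on the opposite strand, and the sources used here do not say that counting used strand.

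BBC3 encodes PUMA, a BH3-only protein known as a p53 target, and was the lowest member in every group but overexpression, where BIK was lower. It lies on chromosome 19 from 47220822 to 47232766 on the minus strand. It measured 2.995 and 3.55 TPM in shControl, 5.03 and 5.38 with sh1, 5.04 and 3.99 with sh2, and 2.88 and 3.24 with the inhibitor. It measured 7.70 and 6.44 TPM in Vector and 7.23 and 7.83 with overexpression. The hairpin libraries thus lay above shControl and below Vector. BBC3 rose by 0.45 with the hairpins against shControl (log2, SE 0.10, limma adjusted p = 0.0054) and was called lower against Vector (-0.46), so its direction depends on the control. Without shControl 1 the rise was 0.36 and no longer called. The inhibitor change was -0.07 (adjusted p = 0.67) and the overexpression change 0.08 (adjusted p = 0.62). Against the other control the inhibitor gave -0.99, called lower (adjusted p = 1.0e-04), and overexpression 0.999, called higher (adjusted p = 8.1e-05). Vector was above shControl by 0.92 (adjusted p = 5.7e-04), the largest difference of a member between the controls. The inhibitor level was 0.52 below the mean of the hairpins (adjusted p = 0.0019).

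PMAIP1 encodes NOXA, a BH3-only protein that binds MCL1. It lies on chromosome 18 from 59899948 to 59904306 on the plus strand. It measured 12.7 and 11.5 TPM in shControl, 13.5 and 12.4 with sh1, 12.8 and 15.5 with sh2, and 16.7 and 12.9 with the inhibitor. It measured 14.8 and 18.1 TPM in Vector and 14.7 and 15.5 with overexpression. Libraries of neighbouring groups overlapped throughout the order of levels. The changes were 0.15 with the hairpins (95% interval -0.11 to 0.41), 0.26 with the inhibitor (-0.04 to 0.56) and -0.11 with overexpression (-0.41 to 0.19), none called by limma. The inhibitor change was 0.44 and called higher without inhibitor 2, and 0.09 without inhibitor 1. Against the other control the directions turned, to -0.26 with the hairpins, -0.15 with the inhibitor and 0.30 with overexpression, none called.

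BID, which is cut by caspase-8 and then carries a death receptor signal to mitochondria, was the most abundant of the 5 BH3-only members. BID lies on chromosome 22 from 17734138 to 17774770 on the minus strand. It measured 71.2 and 71.6 TPM in shControl, 66.4 and 70.5 with sh1, 66.8 and 67.9 with sh2, and 80.8 and 84.1 with the inhibitor. It measured 65.3 and 61.98 TPM in Vector and 58.5 and 58.0 with overexpression. The inhibitor libraries were the highest of the 12 and the overexpression libraries the lowest. BID rose by 0.21 with the inhibitor (log2, SE 0.04, limma adjusted p = 0.0032) and fell by 0.12 with overexpression (SE 0.04, adjusted p = 0.037). The hairpin change was -0.07 (adjusted p = 0.12), called lower only without sh1 2 (-0.09). Against the other control the inhibitor gave 0.37 and overexpression -0.29, the same directions, while the hairpins gave 0.09, the opposite one, not called. The inhibitor call was lost by the median of ratios (0.14) and by quantile normalization (0.09). The overexpression call was lost without Vector 1 (-0.09), overexpression 1 (-0.13) or overexpression 2 (-0.12).

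BIK, a BH3-only protein found at the endoplasmic reticulum, lies on chromosome 22 from 43110748 to 43129712 on the plus strand. It measured 14.3 and 13.3 TPM in shControl, 8.68 and 11.4 with sh1, 11.8 and 11.5 with sh2, and 11.3 and 13.1 with the inhibitor. It measured 10.04 and 11.6 TPM in Vector and 6.27 and 8.07 with overexpression. The shControl libraries were the highest and the overexpression libraries the lowest. BIK fell by 0.54 with overexpression (log2, SE 0.14, limma adjusted p = 0.013) and by 0.86 when set against shControl. Without Vector 2 (-0.44) or overexpression 1 (-0.38) the call was lost. The hairpin fall of 0.33 (SE 0.12, adjusted p = 0.045) lay at the threshold: it was lost without shControl 1 (-0.28), shControl 2 (-0.38), sh1 1 (-0.24), sh2 1 (-0.34) or sh2 2 (-0.32), and against Vector the difference was -0.0024. The inhibitor change was -0.16 (adjusted p = 0.38) and 0.16 against Vector, not called.

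**Figure D3:**
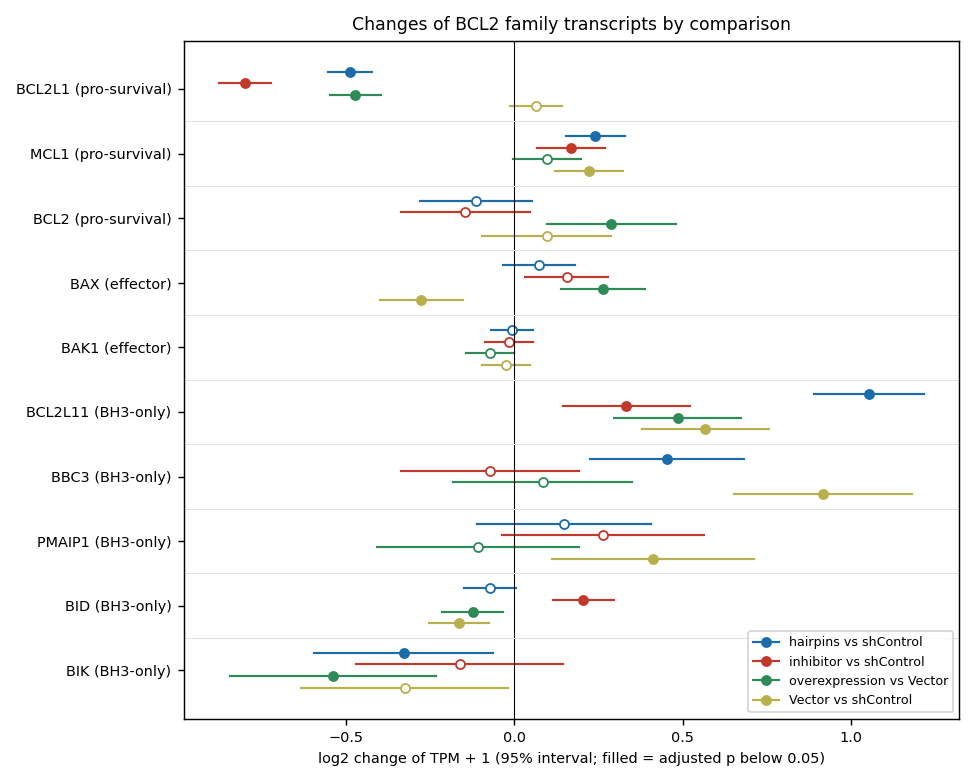
Change of log2(TPM + 1) of each member in 4 comparisons, with 95% intervals from limma; filled points have an adjusted p below 0.05. BCL2L1 lies at -0.49, -0.80 and -0.47 for the hairpins, inhibitor and overexpression and at 0.06 for Vector against shControl, while BCL2L11 lies to the right of 0 in all 4.

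The 5 BH3-only genes summed to 38.8% and 38.5% of the pro-survival sum in shControl, 36.6% and 37.2% in Vector and 40.8% and 41.2% with overexpression. With sh1 the share was 47.6% and 49.5%, with sh2 46.1% and 46.0%, and with the inhibitor 51.9% and 55.3%. Every hairpin, inhibitor and overexpression library lay above every control library. The BH3-only sum itself was 122.3 and 122.8 TPM with overexpression, within the 120.0 and 124.7 TPM of Vector. The higher share there thus came with a lower pro-survival sum. In shControl the BH3-only sum was 116.6 and 116.7 TPM, with the hairpins 129.9 to 133.0 and with the inhibitor 132.8 and 133.4. BMF, described below, is not in these sums. It rose by 0.92 with the hairpins, 0.80 with the inhibitor and 0.63 with overexpression. The little-changed BH3-only sum with overexpression thus holds for these 5 genes alone. The parts differed: BCL2L11 was 25.1% to 28.6% of the BH3-only sum with the hairpins and 14.98% to 15.9% with the inhibitor, where BID was 60.9% and 63.1%. These sums describe RNA and weigh all members alike.

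Each hairpin was also tested alone. With sh1, 3 members rose and 2 fell (background 45.0%; 23.7% higher and 21.3% lower); with sh2, 3 rose and 1 fell (background 35.5%; 22.0% higher and 13.4% lower, or 2259 and 2465 genes by the median of ratios in place of 2806 and 1708). MCL1, BCL2L11 and BBC3 rose and BCL2L1 fell with either hairpin, while BIK passed the test with sh1 at -0.43 and did not with sh2 at -0.22. The sh1 call was lost without sh1 1 (-0.26), shControl 1 (-0.39) or shControl 2 (-0.48), with no filter and against Vector (-0.11), and the sh2 change was called with only the compared groups in the fit. No member differed between the hairpins by limma at an adjusted p below 0.05, beside 1.55% of all genes (1.16% higher and 0.385% lower with sh2, 148 and 49 genes, or 51 and 46 by the median of ratios), and 1 of 10 had an unadjusted p below 0.05: BCL2L1 was 0.13 higher with sh2 (adjusted p = 0.083). STK17B itself stood at 14.6 TPM with sh2 and 11.8 with sh1 (adjusted p = 0.12 for the difference). BBC3 with sh2 (0.36) lost its call without shControl 1 (0.27) or sh2 1 (0.23), by the median of ratios (0.32) and by quantile normalization (0.28). The call was also lost with no filter, with only the compared groups in the fit and with a replicate block. Apart from the exchange of controls, 8 of 15 alternatives kept it.

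Inhibitor and hairpins both target STK17B and were set against each other without a control. No construct is named for the inhibitor group, so an effect of carrying a hairpin cannot be told apart here. In that comparison 4 of 10 members were called, BCL2L1, BCL2L11 and BBC3 lower and BID higher with the inhibitor by 0.28, beside 52.6% of all genes (30.9% higher, 21.6% lower). These 4 calls held under every alternative run. MCL1 was also called lower by the median of ratios (-0.10), by quantile normalization (-0.18) and without inhibitor 1 (-0.15), and BAK1 by quantile normalization (-0.12).

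The controls differed from each other in 6 of 10 members, 4 higher and 2 lower in Vector, beside 29.3% of all genes (21.4% higher, 7.86% lower). The members' split was 3 and 3 by the median of ratios and 3 and 2 by quantile normalization. That of all genes, 2723 higher and 1001 lower, became 1648 and 2196, or 1549 and 1651. MCL1, BCL2L11, BBC3 and PMAIP1 were higher in Vector, the last by 0.41 (limma adjusted p = 0.045). BAX (-0.28) and BID (-0.16) were lower. PMAIP1 lost its call without shControl 1 (0.47), shControl 2 (0.35) or Vector 2 (0.27) and under both rescalings (0.31 and 0.28), and BID without shControl 1 (-0.17), shControl 2 (-0.16) or Vector 2 (-0.13). What the controls differ in besides construct is not given in the labels, and these cannot be told apart. BCL2L1 differed by 0.06 between the controls (95% interval -0.01 to 0.14).

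The effects themselves were compared between manipulations, each against its own control. Between hairpins and overexpression 2 of 10 members differed, BCL2L11 and BCL2, beside 29.9% of all genes (11.4% higher, 18.5% lower). By the median of ratios 3 members differed, 2 higher and 1 lower, and the split of all genes turned from 1445 higher and 2361 lower to 2160 and 1720. Between the inhibitor and overexpression 3 differed, BCL2, BCL2L1 and BID, beside 35.4% of all genes (17.8% higher, 17.6% lower).

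**Figure D4:**
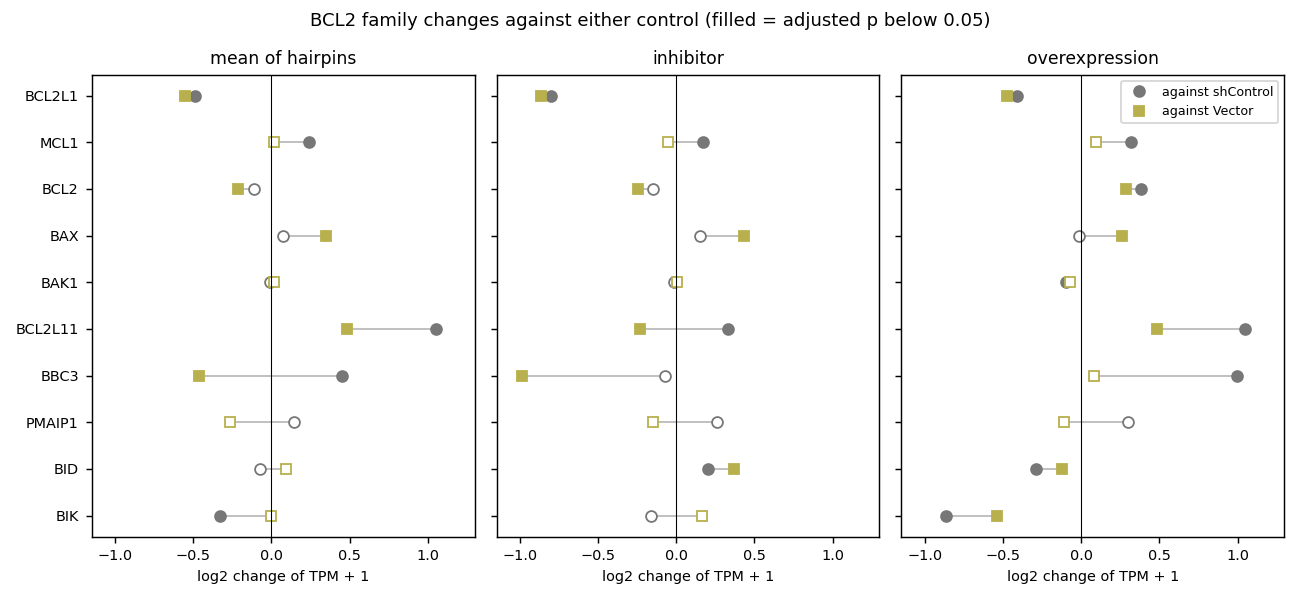
Change of log2(TPM + 1) of each member against shControl (circles) and against Vector (squares) for the mean of the hairpins, the inhibitor and overexpression; filled points have an adjusted p below 0.05. BCL2L1 is lower in all 6 positions, from -0.86 to -0.41, while BBC3 with the hairpins lies at 0.45 against shControl and -0.46 against Vector.

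Other BCL2 family genes numbered 13 in the table, and 8 of them passed the filter. With the hairpins 3 rose and 1 fell, with the inhibitor 3 rose and 2 fell, and with overexpression 3 rose and 0 fell. The background was 46.3%, 39.9% and 36.8% of all genes called, in that order. BMF, a BH3-only protein that is tied to the cytoskeleton and acts much like BIM, measured 32.8 and 33.9 TPM in shControl, 69.8 and 66.7 with sh1, 58.0 and 62.1 with sh2, and 59.0 in both inhibitor libraries. It measured 44.5 and 47.1 TPM in Vector and 72.0 and 71.1 with overexpression. All 8 perturbed libraries lay above all 4 controls, a split that was not counted over all genes. BMF rose by 0.92 with the hairpins (limma adjusted p = 3.2e-07), by 0.80 with the inhibitor and by 0.63 with overexpression, and against the other control by 0.47, 0.36 and 1.08. BAD, a BH3-only protein controlled by phosphorylation, rose by 0.26 with the hairpins and by 0.35 with the inhibitor, and changed by 0.03 with overexpression (adjusted p = 0.67).

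BNIP3 and BNIP3L, relatives of the BH3-only group that act as mitophagy receptors and respond to hypoxia, had another pattern. BNIP3 measured 90.9 and 92.5 TPM in shControl, 22.3 and 23.4 with the inhibitor, 68.0 and 72.2 in Vector and 123 and 119 with overexpression. It fell by 1.96 with the inhibitor (log2, SE 0.04, limma adjusted p = 3.6e-09) and rose by 0.78 with overexpression (adjusted p = 1.6e-06). With the hairpins it fell by 0.15, and against Vector it was called higher by 0.24. BNIP3L measured 33.2 and 33.5 TPM in shControl, 9.54 and 9.50 with the inhibitor, 32.1 in both Vector libraries and 74.1 and 68.5 with overexpression. It fell by 1.71 with the inhibitor and rose by 1.12 with overexpression, and its hairpin change was -0.08 (adjusted p = 0.18). The inhibitor libraries were the lowest and the overexpression libraries the highest for both genes.

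**Figure D5:**
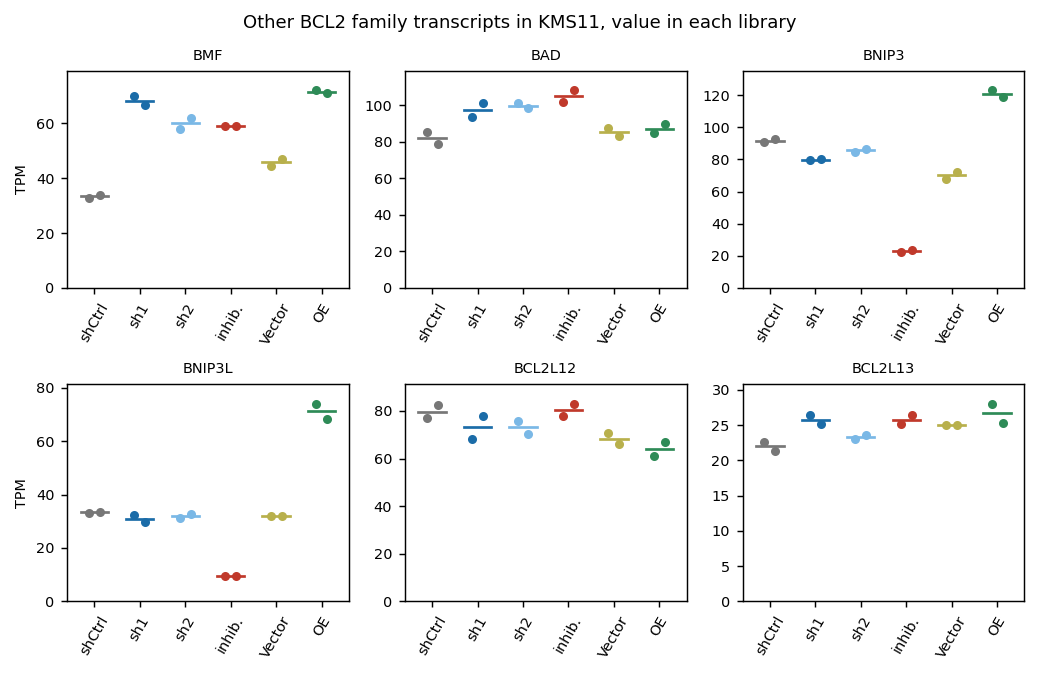
TPM of 6 other BCL2 family genes in each library, by group (shCtrl is shControl, inhib. the inhibitor, OE overexpression); points are libraries and bars are means of 2. BMF is 58.0 to 72.0 TPM in the perturbed libraries and 32.8 to 47.1 in the controls, and BNIP3L is 9.50 to 9.54 TPM with the inhibitor.

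Death receptor genes, which feed the other route of apoptosis and reach mitochondria through BID, were tested for 7 of 8. With the hairpins 5 rose and 1 fell, with the inhibitor 2 rose and 2 fell, and with overexpression 2 rose and 1 fell. The background was 46.3%, 39.9% and 36.8% of all genes called, in that order. FAS, a death receptor, measured 53.2 and 56.0 TPM in shControl, 83.6 to 92.1 over the 4 hairpin libraries and 41.3 to 46.2 with overexpression. It rose by 0.67 with the hairpins and fell by 0.24 with overexpression, and it kept both directions against the other control, at 0.74 and -0.31. Without Vector 1 (-0.22) or overexpression 2 (-0.16) the fall was not called. RIPK1, a kinase of the receptor complex, rose by 0.62 with the hairpins and by 0.69 with the inhibitor. TRADD, the adaptor of that complex, rose by 0.81 with overexpression and by 0.30 with the hairpins. TNFSF10, the ligand TRAIL, fell by 0.61 with the inhibitor, and its hairpin rise of 0.42 became -0.02 against Vector.

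Of 15 apoptosome and caspase genes, all tested, 2 rose and 4 fell with the hairpins. With the inhibitor 6 rose and 3 fell, and with overexpression 4 rose and 2 fell. The background was 46.3%, 39.9% and 36.8% of all genes called, in that order. CASP8, the caspase that cuts BID, rose by 0.62 with the hairpins and by 0.34 with overexpression, the latter not called without Vector 1 (0.24) or overexpression 1 (0.26). CASP10, its close relative, fell by 0.82 with the inhibitor. CASP9, the caspase of the apoptosome, rose by 0.67 with the hairpins against shControl and differed by 0.05 from Vector, not called.

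Of 6 inhibitor of apoptosis genes tested, 2 rose and 2 fell with the hairpins. With the inhibitor 2 rose, and with overexpression 2 rose and 1 fell. For these genes and the MCL1 turnover genes below, the background was 46.3%, 39.9% and 36.8% of all genes called, in that order. BIRC2, which encodes cIAP1, rose by 0.30, 0.37 and 0.29 in these comparisons, and the last was not called without Vector 1 (0.22) or overexpression 1 (0.21). NAIP rose by 0.39 with the hairpins and differed by 0.05 from Vector. BIRC3, which encodes cIAP2, fell by 0.23 with overexpression and lost the call without Vector 2 (-0.20) or overexpression 2 (-0.19). BIRC6 fell by 0.20 with the hairpins, a call lost without shControl 1 (-0.19), shControl 2 (-0.21), sh1 2 (-0.16) or sh2 1 (-0.17). Of 5 genes that control MCL1 protein turnover, 0 rose and 2 fell with the hairpins, 1 rose and 1 fell with the inhibitor, and 0 rose and 1 fell with overexpression. FBXW7, which marks MCL1 for breakdown, fell by 0.34 and the deubiquitinase USP13 by 0.24 with the hairpins. MARCH5, a ubiquitin ligase of the outer mitochondrial membrane, rose by 0.33 with the inhibitor. HUWE1, the ligase also called MULE, fell by 0.29 with overexpression; against shControl its change was -0.05, not called.

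Transcription factors known to act on these genes were tested for 13 of 15. With the hairpins 3 rose and 5 fell, with the inhibitor 4 rose and 3 fell, and with overexpression 3 rose and 3 fell. The background was 46.3%, 39.9% and 36.8% of all genes called, in that order. FOXO3, known to activate BCL2L11, measured 39.1 and 40.0 TPM in shControl, 58.6 to 69.0 over the hairpin libraries, 50.8 and 49.6 with the inhibitor, 52.5 and 55.2 in Vector, and 65.0 and 62.03 with overexpression. It rose by 0.64 with the hairpins, 0.33 with the inhibitor and 0.24 with overexpression, and was 0.43 higher in Vector than in shControl. Its changes had the direction of those of BCL2L11 in these 4 comparisons, and a part of FOXO3 in them was not tested. Against Vector, FOXO3 with the inhibitor was -0.10, not called; the overexpression call was lost without Vector 1 (0.20) or overexpression 1 (0.20). DDIT3, a stress factor that acts on BCL2L11 and BBC3, rose by 0.59 with the hairpins and was -0.28 against Vector, not called. JUN fell by 0.85 and ATF3 by 0.73 with the inhibitor. Their hairpin changes were -0.27 and -0.21, and their overexpression changes 0.26 and -0.35. The overexpression change of DDIT3 was -0.19, not called. Unlike FOXO3, these factors thus did not share the direction of BCL2L11 throughout, and a part of them was not tested.

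Across the 12 libraries, the tested genes with a mean of at least 5 TPM whose log2 values ran most like those of a member were listed from 9015 candidates. The libraries share groups and controls, so these correlations are descriptions. BCL2L11 ran with SLC30A9 (Pearson r 0.987), TMEM14C (0.985) and MATN2 (0.980). BCL2L1 ran with ADA (0.972), SEMA4A (0.969) and TXNDC11 (0.957). BID ran with TIMM13 (0.984), MCM5 (0.983) and PES1 (0.982). The closest genes were OTUD5 for BBC3 (0.972), SLC25A36 for BCL2 (0.966), LOC100506098 for MCL1 (0.955), WDR34 for BAX (0.939) and PHGDH for BIK (0.935). Among the members themselves, MCL1 and BCL2L11 ran together most closely (0.863), and BBC3 and BID ran most opposite (-0.856), with BCL2L1 and BAX next (-0.787).

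The order of the group means set some groups apart and not others. Of all 12731 genes tested, 57.8% had no overlap between hairpin and shControl libraries, and 71.1% none between inhibitor and shControl. The share was 69.3% for overexpression against Vector and 68.5% for Vector against shControl. For the members the shares were 60%, 80%, 80% and 90%, in that order, and were not tested against the background. Groups that lie apart are thus common in these data. For BCL2L1 the order was Vector, shControl, overexpression, sh2, sh1 and inhibitor, and the libraries of overexpression and sh2 overlapped while all other neighbours were apart. For BCL2L11 it was sh1, overexpression, sh2, Vector, inhibitor and shControl, with overlap among the first 3 groups and none below. For BID it was inhibitor, shControl, sh1, sh2, Vector and overexpression, and only sh1 and sh2 overlapped. For BAK1 and PMAIP1 the neighbours overlapped, except that BAK1 with overexpression lay below Vector. Among the members, BAX had the highest mean level in every group. BCL2L1 was second in shControl and Vector and MCL1 in the other 4 groups.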

How the data were processed

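The authors deposited 1 table of TPM values, a length-corrected unit with equal library totals, per gene and library for KMS11. Per the labels, poly(A) RNA was sequenced on DNBSEQ as stranded libraries. Per the submitters' processing notes, RSEM 1.3.1, Bowtie2 2.3.4.3, HISAT and DESeq2 1.4.5 were used with GRCh38.p13, with no role given for any. Only TPM was used here, and TPM takes no count model. The filter kept 12731 genes that reached 1 TPM in 2 or more libraries. The limma package (3.58.1, R 4.3.3) fitted log2(TPM + 1) with a mean per group over all 12 libraries, eBayes with trend, and Benjamini-Hochberg adjustment within each of 10 comparisons. The pseudocount of 1 understates changes of low genes. With 2 libraries a group a permutation test cannot go below p = 0.333, so none was used.

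The members, the wider gene lists and the markers were chosen with earlier results of these data known. All members are named; from each wider list, up to 4 called genes with the largest change are named, and for members called in a main comparison the genes most like them. TNFRSF10A, TNFRSF10B and other listed genes enter counts only. A result that this rule would name is not reported here. Alternatives changed the pseudocount (0.1, 0.5), the filter (none, 5 TPM), the groups in the fit, the scaling (median of ratios, quantile normalization, without the 20 most abundant genes), the variance model, the replicate block, the control columns and each library in turn. Tested on simulated data with 200 changed genes of 12731, the fit recovered 99.5% (hairpins), 100.0% (inhibitor) and 98.5% (overexpression) of changes of 1 log2 unit. For changes of 0.5 it recovered 93%, 89% and 96.5%. False calls were 1.66% to 6.31% of all calls. The simulated noise was independent and drawn from the fit's own spreads, and only genes averaging above 5 TPM were raised. The recovery therefore says nothing about lower genes, scaling or technical spread. Gene positions are from GENCODE on GRCh38, and promoter sequence is from RefSeq.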

Additional observations from a re-analysis of the deposited data

Results flagged for a closer look

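For 4 members the effect of a hairpin or inhibitor differed from the effect of overexpression, each effect taken against its own control, and the difference itself was tested with limma over all genes. Of all genes 29.9% were called in the test of the hairpin effect minus the overexpression effect, and 35.4% in that of the inhibitor effect minus the overexpression effect. BCL2L11 rose by 0.57 more (log2) with the hairpins than with overexpression (adjusted p = 0.0045). That value turned to -0.56 when the control columns were exchanged. BCL2 changed by -0.40 with the hairpins relative to overexpression (adjusted p = 0.024), and by -0.43 with the inhibitor relative to overexpression (adjusted p = 0.020). The first of these lost its call without shControl 2 (-0.37), Vector 1 (-0.36) or overexpression 1 (-0.34), and the second without shControl 2 (-0.40), Vector 1 (-0.39), inhibitor 2 (-0.33) or overexpression 1 (-0.37). BCL2L1 was -0.33 with the inhibitor relative to overexpression (adjusted p = 7.9e-04): it fell in both, and further with the inhibitor. BID was 0.33 with the inhibitor relative to overexpression (adjusted p = 0.0020), having risen in the first and fallen in the second. The BCL2L1 and BID differences were called under all alternatives run, the exchange of controls included.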

How the results depend on the processing

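Depth is unknown and 2 libraries form each group, so small changes near the threshold are the least certain. Of 1730 repeats of member changes under an alternative, 1555 kept direction and side of the threshold, 65 lost a call, 44 gained one and 53 turned sign with no call. The 13 others turned sign with a call on at least 1 side, all of them with the control columns exchanged. The cause of a lost call was not tested.

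With the control columns exchanged, reversed values for the hairpins were BBC3 -0.46 (sh1 -0.38, sh2 -0.55), BNIP3 0.24, TNFSF10 -0.022 and DDIT3 -0.28. For the inhibitor they were MCL1 -0.055, BCL2L11 -0.24, CASP9 -0.33, NAIP -0.22, FBXW7 -0.25, FOXO3 -0.10 and DDIT3 -0.80. For overexpression they were BAX -0.013, TNFSF10 0.33, FBXW7 0.25 and DDIT3 0.68. For the hairpin effect minus the overexpression effect they were MCL1 -0.30, BAX 0.36, BCL2L11 -0.56, PMAIP1 -0.57 and BBC3 -1.46, and for the inhibitor effect minus it MCL1 -0.37 and BAX 0.44. For Vector against shControl the exchange only turns the sign and was not run.

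Counts of members called moved as follows. The 2 lower with the hairpins became 1 with no filter, without the 20 most abundant genes and with eBayes without trend, and the 2 lower with sh1 became 1 with no filter. The 1 lower with sh2 became 2 with only the compared groups and with exchanged controls. With the inhibitor, 3 higher became 1 by the median of ratios and by quantile normalization, and 1 lower became 2, 3 and, exchanged, 4. With overexpression, 3 higher became 1 by the median of ratios. For the inhibitor against the hairpins, 3 lower became 5 by quantile normalization. For the hairpin effect minus the overexpression effect, 1 higher became 2 with only the compared groups and by the median of ratios and 4 exchanged, and 1 lower became 6 exchanged. For the inhibitor effect minus it, 1 higher became 3 and 2 lower became 5 exchanged.

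Leaving out 1 library gave 2 to 3 higher and 1 to 3 lower for the hairpins, 3 higher and 1 to 2 lower for sh1, 2 to 3 higher for sh2, 1 to 4 higher for the inhibitor, 2 to 3 higher and 1 to 2 lower for overexpression, and 3 to 4 higher and 1 to 2 lower for Vector. It gave 1 higher and 3 to 4 lower for the inhibitor against the hairpins, 0 to 2 lower for the hairpin effect minus the overexpression effect, and 1 to 3 higher and 1 to 2 lower for the inhibitor effect minus it.

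Same-numbered libraries shared little deviation: over 15 pairs of groups the correlation of same-numbered deviations ran from -0.10 to 0.14, with 1 above 0.1. Whether they came from a shared culture or day is not given in the labels, and these correlations cannot decide it. A replicate block changed 3 member calls: BBC3 with sh2 (0.36) and PMAIP1 in Vector (0.41) were lost and BAX with the inhibitor (0.15) was gained.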
